A study of Mus musculus with 12 samples.

Results

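Of 28210 H4K20me3 domains listed for mouse embryonic stem cells, 576 lay over pseudogenes and over no protein-coding or long noncoding RNA (lncRNA) gene body, and these 576 are described here. They are the domains on chromosomes 1 to 19 that start at or after 8 Mb, are at least 1 kb and under 10 kb wide, share at least 1 base with a RefSeq pseudogene or transcribed pseudogene, and share none with a protein-coding or lncRNA gene. Among 20695 domains within the same limits of chromosome, start and width, 14312 lay outside protein-coding, lncRNA and pseudogene bodies and serve as the comparison. The members were 3.87% of the 14888 domains within the limits that lay outside protein-coding and lncRNA bodies. Another 4236 touched protein-coding genes, and 1571 touched lncRNA genes and no protein-coding gene. The members were chosen by measured domain position and width, so their number, overlap and widths are descriptions with no test.

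The list comes from H4K20me3 ChIP-seq of dTKO embryonic stem cells. All 12 libraries are labelled with floxed alleles of the H3K9 methyltransferase genes Suv39h1 (Suv39h1fl/fl) and Setdb1 (Setdb1fl/fl) and with Suv39h2-/-. The cells received 2 small molecules that send tagged proteins to degradation, auxin (100 μg/ml) together with dTAG13 (0.5 μM). Exposure lasted 0, 12, 24 or 48 h, and every exposure time has 3 replicates. All groups thus share the Suv39h2 null alleles, and the labels do not say which proteins carry the tags or whether the line is a single clone. The list names no time or replicate and holds no signal or depth, so neither the decay of the mark nor an error between replicates can be given for any domain, and the labelled cell type could not be checked against markers.

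H4K20me3 is a mark of compact chromatin. Its methyltransferases are recruited through HP1 proteins, which bind the H3K9me3 that SUV39H1, SUV39H2 and SETDB1 deposit, and it is known from satellite repeats, retrotransposons and imprinted regions in embryonic stem cells. Pseudogenes are gene copies that no longer encode a working protein. Processed copies arise when LINE-1 enzymes reverse-transcribe a messenger RNA and insert it elsewhere, and are short and without introns, while unprocessed copies arise from duplication of a gene and its introns, and are common in clustered families such as vomeronasal receptors and cytochromes P450. The gene table used here gives body ends and no exons, so body length is the only available sign of the kind of copy.

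1 of the 576 domains held a microRNA gene, and its sequence is shown because it is the only part of any of these domains whose bases are in the reference tables used here. The domain, 4.65 kb wide at chr13:75640951-75645600 (mm10), contained the whole of the 0.364 kb pseudogene Gm4149, which has no named parent. The Mir682 hairpin lies within Gm4149 at chr13:75645046-75645141 on the plus strand (RefSeq, GRCm38.p6). In the hairpin, capitals mark the mature miRNA. In the mature miRNA, capitals mark the seed, bases 2 to 8.
Mir682 hairpin: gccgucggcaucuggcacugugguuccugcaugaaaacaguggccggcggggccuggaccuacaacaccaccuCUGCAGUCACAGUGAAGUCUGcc
mmu-miR-682: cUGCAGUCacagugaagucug
Read from its first base, the hairpin held 32 codons and 0 stop codons. From the second base it held 31 codons with 2 stops, and from the third base 31 codons with 0 stops. Of 919 autosomal miRNA hairpins in the table, this was the only 1 in these domains. The other small RNA genes touched were a snoRNA, LOC115488271, in the domain over Gm7896 and a snoRNA, LOC115488428, in the domain over Gm48906. None of 31396 autosomal promoter windows around RefSeq starts shared a base with a member domain. The rule itself bars the part of each window that lies inside the gene. A member can thus meet a window only by ending in the short part outside the gene, so the rule largely sets this absence. Of 32619 windows on the autosomes and X, 1.96% met a domain of the list of any width or place.

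The 576 domains touched 514 pseudogenes. A single pseudogene was touched by 566 of the domains, 9 domains touched 2, and 1 touched 3. That last domain, 8.40 kb wide at chr7:41667001-41675400, lay over Vmn2r-ps54, Gm9252 and Gm6872, whose bodies together took its whole width. Of the 514 pseudogenes, 491 shared no base with a protein-coding or lncRNA gene anywhere along their body, and 23 did so outside the domain. Among all 6279 pseudogenes that start at or after 8 Mb and share no base with such a gene, the 491 were 7.82%. The corresponding share was 11.8% for 19687 protein-coding genes and 11.0% for 11888 lncRNA genes with any domain within the limits, but these bodies are mostly longer, and a longer body has more bases that can meet a domain. Transcribed pseudogenes were met in 36 of 275 cases (13.1%) and other pseudogenes in 455 of 6004 (7.58%), with median bodies of 3.41 and 0.924 kb. This order was not seen per base. Outside genes, 6.0% of bases of the biotype pseudogene alone lay in domains, against 5.80% with transcribed pseudogenes included.

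Per base, pseudogene sequence lay in domains somewhat more often than other sequence outside gene bodies. Of 21.4 Mb of pseudogene bodies outside protein-coding and lncRNA genes, 5.80% lay in domains of 1 kb to under 10 kb. The share was 4.40% for the 1176 Mb of other sequence outside gene bodies, a ratio of 1.32. lncRNA gene bodies had 2.36% and protein-coding gene bodies 1.39% of their bases in such domains. Counting each domain once at its midpoint, pseudogene bodies held 15.5 domains per Mb and other sequence outside gene bodies 12.7, a ratio of 1.22. With domains of any width, the shares were 9.48% and 5.92%, a ratio of 1.60. The comparison is with all such sequence, not with the neighbourhood of pseudogenes. Of positions 5 to 20 kb from the centres of pseudogenes under 2 kb, 5.44% lay in domains, also above 4.40%. For bodies under 2 kb, the comparison therefore does not set the bodies apart from their surroundings. Bodies of 10 to 50 kb (7.34 Mb) and of 50 kb or longer (5.78 Mb) were not compared with their surroundings. The 1 domain list has no replicates, so these ratios carry no error and no test was made.

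The difference was present on most chromosomes but not all. The ratio was above 1 on 15 of 19 autosomes. It was highest on chromosome 18 (8.54% of pseudogene bases against 3.58% of other bases) and chromosome 3 (8.90% against 4.36%). It was below 1 on chromosomes 2 (3.07% against 3.56%), 7 (4.56% against 4.65%), 16 (2.88% against 4.27%) and 19 (2.93% against 3.57%). Chromosome 7 had the most member domains, 57, and also the most eligible pseudogenes, 746, of which 6.97% were met. Chromosome 16 had the fewest members, 7, and the smallest share of pseudogenes met, 3.72% of 188. Chromosome 5 had the largest share, 10.9% of 312.

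The share of pseudogenes met grew with body length. Pseudogenes met by a member domain had a median body of 1.74 kb, against 0.924 kb for the 5788 that were not. The share met was 4.66% for 3390 bodies under 1 kb, 7.40% for 1528 bodies of 1 to 2 kb and 8.74% for 755 bodies of 2 to 5 kb. It was 14.8% for 243 bodies of 5 to 10 kb, 27.2% for 323 bodies of 10 to 50 kb and 75.0% for 40 bodies of 50 kb or longer. Shares of bases do not grow with body length in this way. They were 4.24% in bodies under 1 kb, which is 0.965 of the share in other sequence outside gene bodies, and 5.46 to 6.33% in the 5 longer classes. The bases of the shortest bodies, the size of most processed copies, were thus in domains about as often as other sequence outside gene bodies.

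**Figure D1:**
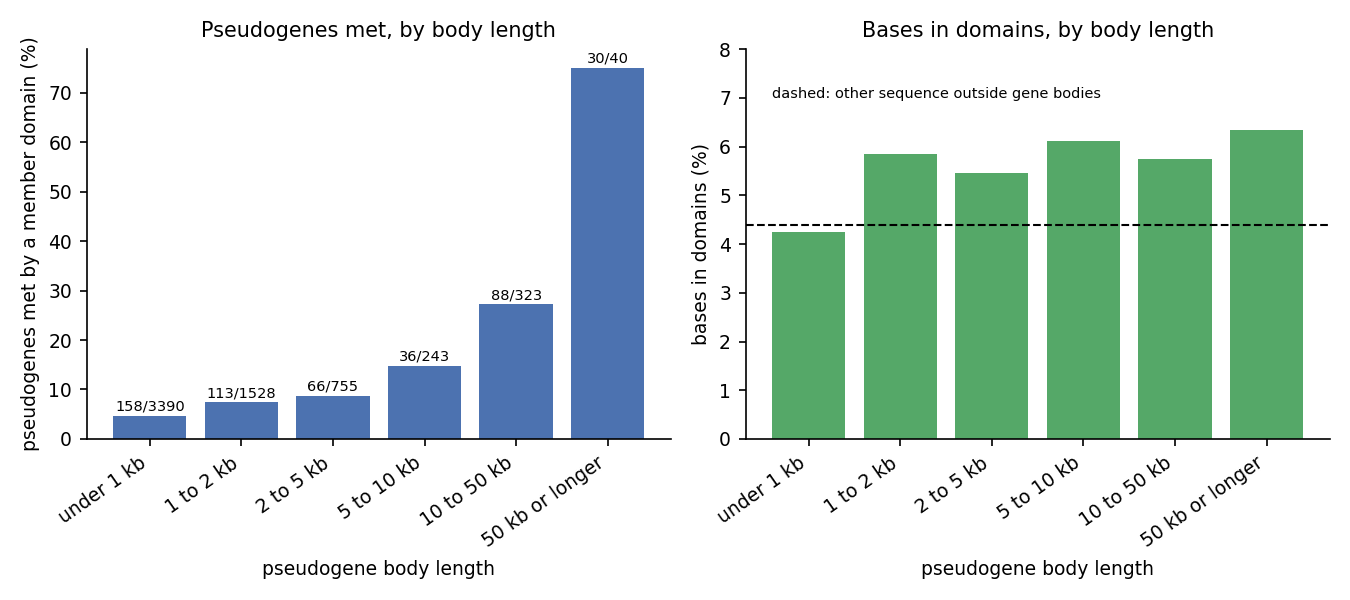
Left, share of eligible pseudogenes met by a member domain (%, bars, with counts above them) by body length. Right, share of pseudogene bases in domains of 1 kb to under 10 kb (%, bars), with the dashed line at 4.40% for other sequence outside gene bodies. The left bars climb from 4.66 to 75.0%, while only the bar for bodies under 1 kb, at 4.24%, is below the dashed line on the right.

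Domains did not form a sharp peak on short pseudogenes. The centres of 4918 pseudogenes under 2 kb lay in a domain in 4.74% of cases, against 4.15% of positions 1 to 3 kb to either side and 5.44% of positions 5 to 20 kb away. Positions inside protein-coding or lncRNA genes were left out, so fewer pseudogenes enter at larger distances. In the 2430 of them with no such gene within 20 kb, the shares were 4.65% at the centre, 3.91% at 1 to 3 kb and 5.55% at 5 to 20 kb. Coverage thus dipped within a few kilobases of the pseudogene, with a small rise at its centre. The 4.65% at the centre stands for 113 of 2430 centres in a domain, of which the rise over 3.91% is a small part. For 998 pseudogenes of 2 to 10 kb the values were 5.51%, 5.11% and 6.16%. In each set the share at 5 to 20 kb was above that at the centre. It was also above the 4.40% of all other sequence outside gene bodies. Neighbouring positions share domains, so these shares are not independent of each other.

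**Figure D2:**
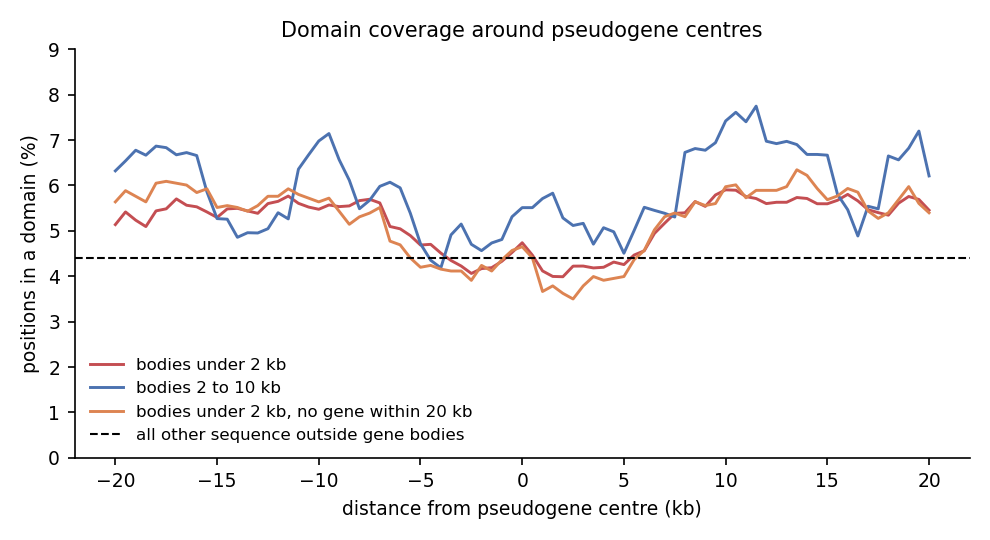
Share of positions in a domain of 1 kb to under 10 kb (%) by distance from the pseudogene centre (kb), in steps of 0.5 kb, for 3 sets of pseudogenes by body length. The lines for bodies under 2 kb are at 4.74% and 4.65% at the centre, fall on both sides and are higher from about 7 kb outward; the dashed line is the 4.40% of other sequence outside gene bodies.

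The members divided into 3 layouts. In 202 domain and pseudogene pairs, with 140 pseudogenes, the domain lay wholly inside the pseudogene. The median body over these pairs was 41.0 kb, and a body with several domains counts once for each. In 171 pairs the pseudogene lay wholly inside the domain, with a median body of 0.843 kb that took a median of 20.3% of the domain. In 214 pairs the domain crossed an end of the pseudogene, and the pseudogene took a median of 27.9% of it. By these medians, most of the domain in the latter layouts typically lay outside the pseudogene body. Some crossing domains were mostly pseudogene, such as a 3.75 kb domain over Gm5210 with 91.7% inside it. Repeats in the sequence outside the bodies were not examined. Among the eligible pseudogenes met, 171 were wholly covered, 277 were covered over at least 50% of the body, and 33 had 2 or more member domains.

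Member domains had a median width of 3.45 kb (quartiles 2.25 and 5.59 kb), against 2.85 kb (1.95 and 4.20 kb) for other domains outside gene bodies and 2.85 kb for domains over lncRNA genes. Domains of 5 kb or wider were 29.2% of members and 17.4% of the others outside gene bodies. Width differed by layout. The 202 domains wholly inside a pseudogene had a median of 2.85 kb, equal to that of the comparison, and the remaining 374 a median of 3.75 kb. Sorted by midpoint, which does not favour wide domains, the median was 3.00 kb both in pseudogene bodies and in other sequence outside gene bodies.

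**Figure D3:**
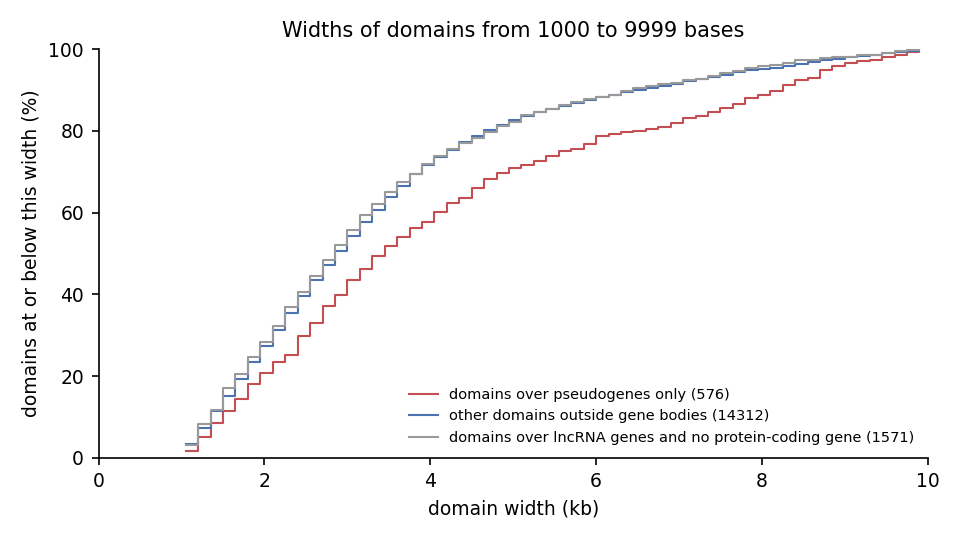
Cumulative share of domains (%) by width (kb) for the 576 domains over pseudogenes only, 14312 other domains outside gene bodies and 1571 domains over lncRNA genes and no protein-coding gene. The line of the pseudogene domains runs below the others, with medians of 3.45, 2.85 and 2.85 kb.

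The 11 widest members were 9.60 to 9.90 kb wide. Gm15136, Gm17804, Phf20-ps and Rpl23a-ps10 each lay at a domain of 9.90 kb. Rpl23a-ps10, a copy of a large-subunit ribosomal protein gene, met only the last 0.087 kb of its domain (chr7:32126851-32136750), 0.879% of it. Gm52218 took 87.6% of its 9.75 kb domain, Gm3786 took 2.65%, and Vmn2r-ps21 and Gm18360 contained theirs entirely. Cyp2d33-ps, a copy from the cytochrome P450 family that oxidises drugs and steroids, took 34.7% of a 9.60 kb domain, and Nutf2-ps1, from a nuclear import factor gene, 9.17% of another. The domain over Oas1b, described below, ties with these at 9.60 kb. Among domains wholly inside a pseudogene, the widest after those in Vmn2r-ps21 and Gm18360 lay in Gm12026 and Gm2011 (9.15 kb each), Gm21927 and Rpl31-ps25 (9.00 kb each), Gm4036 and Gm6831 (8.85 kb each) and Gm4012, Mark4-ps, Gm9683 and Vmn2r-ps23 (8.70 kb each). Of the 9 domains over 2 pseudogenes, the 4 widest were over Olfr927-ps1 with Olfr928-ps1, Gm18629 with Gm46993, Olfr1527-ps1 with Olfr579-ps1, and Gm7443 with LOC665004.

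At the width limits, the 4 widest members, the one over Phf20-ps among them, had 9.90 kb and the narrowest domain over pseudogenes above the limit, over Gm39743, had 10.05 kb. The 10 narrowest members, the one over Gm43664 among them, had 1.05 kb and the widest domain below the limit, over Gm6155, had 0.900 kb. At the start limit, the first member was over Gm9742 on chromosome 13 at 8028151, and the last domain before it was over Nfyc-ps on chromosome 12 at 7859401. Beyond the limits stood 122 wider domains over pseudogenes only, up to 72.5 kb, and 38 narrower ones, all starting at or after 8 Mb. Before 8 Mb, 49 started with a width inside the limits and 13 with a width outside them, which with the members makes 798 on the autosomes.

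A few very long pseudogene bodies carried many domains. Gm18728 on chromosome 1 (102971589 to 103401075, 429.5 kb, no named parent) had 11 member domains, each 1.05 to 4.50 kb wide. Together they covered 27.8 kb (6.46% of the body), and 3 wider domains of 10.95 to 13.95 kb lay among them. Vmn2r-ps11 on chromosome 3 (64632863 to 64844743, 211.9 kb), from the type 2 vomeronasal receptor family that detects pheromones, had 8 member domains that covered 31.1 kb, or 14.7%. These 8 lay between 47.6 and 189.6 kb of the body. Vmn2r-ps23 on chromosome 5 (153.4 kb) had 5 member domains covering 15.0%, and Gm7240 on chromosome 13 (112.5 kb) had 5 covering 10.7%. Gm18360 on chromosome 7 (65.5 kb) had 3 that covered 29.8%.

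With members no more than 200 kb apart counted as a run, 330 members stood alone and 246 fell into 93 runs. The runs with the most members were the 11 domains of Gm18728 and the 8 of Vmn2r-ps11. On chromosome 4, from 115142251 to 115585200, 6 members lay over Cyp4a28-ps, Cyp4a30-ps, Cyp4b1-ps1 and Cyp4b1-ps2, copies of fatty acid hydroxylase genes. On chromosome 9, from 38890351 to 39163950, 4 members lay over Gm8543, Olfr927-ps1, Olfr928-ps1, Olfr939-ps1 and Olfr942-ps1. The member domains were also closer to other domains than the comparison was, with a median gap of 12.8 kb to the nearest domain of the list against 17.4 kb. They lay nearer to protein-coding genes, at a median of 35.3 kb (quartiles 11.7 and 111.7 kb) against 109.6 kb (24.8 and 355.1 kb). Pseudogene sequence as a whole was also distributed differently from other sequence outside gene bodies. At 10 to 50 kb from such a gene lay 40.3% of it against 23.4%, and at 200 kb or farther 17.9% against 33.6%. Within 10 kb the shares were 15.7% and 17.0%.

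The difference per base was present in each of 4 classes of distance to protein-coding genes. Within 10 kb of such a gene, 4.98% of pseudogene bases and 3.17% of other bases outside gene bodies lay in domains. The shares were 6.14% and 4.89% at 10 to 50 kb, 5.80% and 4.41% at 50 to 200 kb, and 5.75% and 4.66% at 200 kb or farther. The ratios were 1.57, 1.26, 1.32 and 1.23. This division was chosen after the distances were seen.

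By symbol or synonym, 124 of the 514 pseudogenes carried the name of a parent gene or family, 10 had a gene symbol of their own, and 380, mostly Gm numbers, named no parent. Among eligible pseudogenes, families with a name were met in 123 of 1380 cases (8.91%), and those with none in 368 of 4899 (7.51%). The share for all eligible pseudogenes was 7.82%. Families differ in body length, so both the share met and the share of bases are given.

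Copies of xenobiotic and secreted protein genes were met in 16 of 70 cases (22.9%), the highest share among the 12 groups with at least 10 eligible pseudogenes, and their median body was 3.70 kb. Of their bases, 9.61% lay in domains, and 8.55% without Cyp2b28-ps, the most covered. Cytochrome P450 copies gave 12 of the 16, from 31 eligible (38.7%) with a median body of 12.0 kb. Among all eligible pseudogenes with bodies of 10 to 50 kb, 27.2% were met. Cyp2b28-ps on chromosome 7 (25950226 to 25988455) had 2 domains over 10.7 kb of its body (27.9%). Its neighbour Cyp2b27-ps had 6.75 kb covered (27.8%), and Cyp2j14-ps and Cyp2j15-ps on chromosome 4 had 8.25 kb (34.4%) and 7.50 kb (26.1%). Copies of Mup genes, which encode the major urinary proteins, were met in 3 of 18 cases.

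Vomeronasal receptor copies were met in 19 of 228 cases (8.33%), with 7.40% of bases in domains and 6.23% without Vmn2r-ps11. The Vmn2r copies were met in 13 of 105 cases (12.4%, median body 1.69 kb) and the Vmn1r copies in 6 of 123 (4.88%, 0.847 kb). Vmn2r-ps54 had 10.7 kb covered (18.1%), Vmn2r-ps94 10.4 kb (23.2%), Vmn2r-ps21 9.75 kb (50.9%) and Vmn2r-ps133 7.65 kb (21.5%). Olfactory receptor copies were met in 17 of 300 cases (5.67%), and 6.22% of their bases lay in domains, or 4.51% without Olfr400-ps1. Olfr400-ps1 was covered over 89.3% of 6.15 kb, Olfr580-ps1 over 80.7% of 1.35 kb, Olfr1372-ps1 over 31.6% and Olfr1300-ps1 over 20.3%.

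Ribosomal protein copies, mostly short, were met in 11 of 189 cases (5.82%), below the 7.82% of all eligible pseudogenes. They had 9.27% of bases in domains, but 5.17% without Rpl31-ps25, whose annotated body of 41.9 kb had 9.00 kb covered. Of the remaining 10, Rps19-ps9 (1.02 kb), Rpl15-ps6 (0.828 kb), Rps19-ps5 (0.634 kb), Rps18-ps1 (0.523 kb), Rps12-ps10 (0.506 kb) and Rpl31-ps10 (0.481 kb) lay wholly inside domains. Rpl12-ps1 was covered over 97.5%, Rpl7a-ps7 over 94.0%, Rpl12-ps2 over 60.8% and Rpl23a-ps10 over 16.5%. Chaperone and cyclophilin copies were met in 7 of 69 cases (10.1%), all from Ppia, the cyclophilin A gene, Hspd1, which encodes a mitochondrial chaperonin, or Cct8, a subunit of the cytosolic chaperonin. Gm9655, an Hspd1 copy, was covered over 91.4% of 8.08 kb. Gm9700, another Hspd1 copy, and Gm6074, a Ppia copy, lay wholly inside domains, and Gm14267, also from Ppia, had 9.72% of 29.0 kb covered. Their share of bases was 12.0%, or 5.79% without Gm9655.

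The smaller groups rest on few pseudogenes. Zinc finger copies were met in 3 of 16 cases: Zfp813-ps (13.1% covered), Zfp353-ps (44.0%) and Zscan4a (59.1%), the last a member of the Zscan4 cluster, which is active in 2-cell embryos. Immune gene copies were met in 2 of 17, Ifi203-ps (15.4%) and H2-M10.5-ps1 (29.7%), and copies of mitochondrial respiration genes in 1 of 14, Atp5c1-ps, which lay wholly inside a domain. No copy of 20 from translation factor genes or of 14 from glycolysis genes was met. Among eligible pseudogenes with other named parents, 43 of 419 were met (10.3%), with the most bases covered in Mark4-ps (10.1 kb, 47.9%), Mug-ps1 (9.75 kb, 13.4%), Rdh18-ps (7.71 kb, 34.5%) and Naip3 (5.50 kb, 11.2%). Groups with fewer than 10 eligible pseudogenes were met in 4 of 24 cases together. Among eligible pseudogenes without a named parent, those with the most bases covered were Gm18728, Gm18360 (19.5 kb), Gm3116 (17.7 kb) and Gm7240 (12.0 kb).

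**Figure D4:**
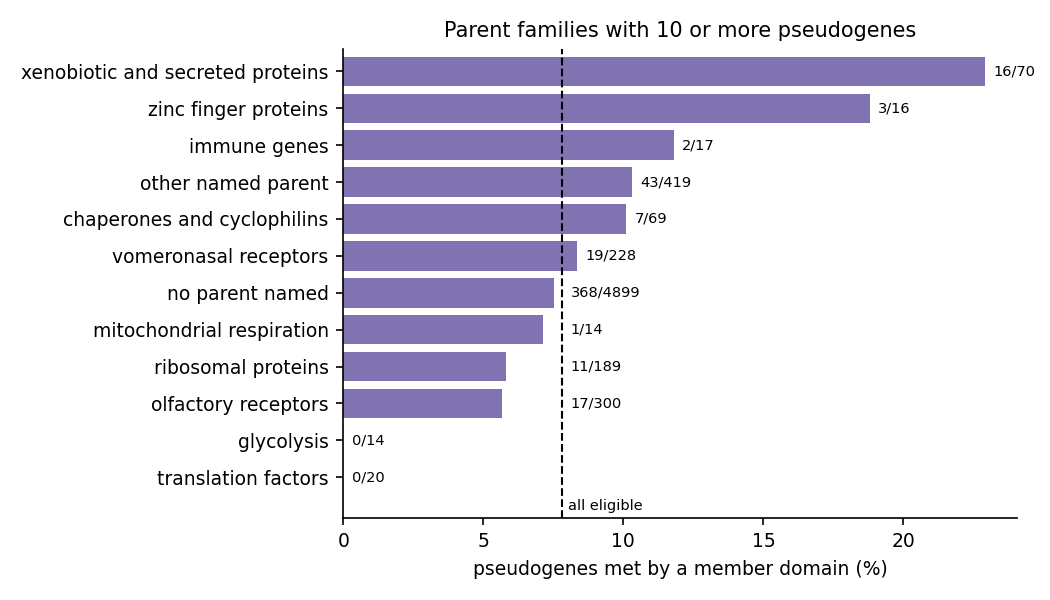
Share of eligible pseudogenes met by a member domain (%, bars, with counts beside them) in the 12 groups by parent that have at least 10 eligible pseudogenes. The dashed line is the 7.82% of all eligible pseudogenes; xenobiotic and secreted protein copies reach 22.9%, while translation factor and glycolysis copies have 0.

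Pseudogenes were set beside the intact genes of the same symbol stem, with all domains within the limits and with pseudogenes that overlap genes included. Over all genes, 5.80% of pseudogene bases and 1.39% of protein-coding bases lay in domains. Unlike the shares by stem, the 5.80% leaves out pseudogene bases shared with protein-coding or lncRNA genes. By stem, the share of bases was larger in the pseudogenes for 11 of 12 stems, the same direction as over all genes, with Mup genes the exception (5.20% in pseudogenes, 8.88% in coding genes). Of the 11, Scgb and Cct rest on 1 pseudogene met. Ppi is set against 1 coding gene, with a body of 6.46 kb. That gene is not Ppia (3.95 kb, starting at 6415867 on chromosome 11, before 8 Mb), the parent of the 4 Ppi copies met. The Ppi entry therefore does not set these copies beside their parent. No coding gene counted for the Scgb, Rps, Ppi or Cct stems met a domain. The Rpl share includes the 9.00 kb covered in Rpl31-ps25, and the Hsp share the 7.38 kb covered in Gm9655. For olfactory receptors it was 6.23% in pseudogenes and 2.69% in coding genes, for Vmn2r genes 6.88% and 5.04%, for Vmn1r genes 5.67% and 2.24%, and for cytochrome P450 genes 11.1% and 4.17%. Olfactory receptor pseudogenes and coding genes have like median bodies (0.910 and 0.951 kb), and 18 of 310 (5.81%) against 24 of 1093 (2.20%) met a domain. For Vmn2r, 19 of 121 pseudogenes (15.7%) and 34 of 113 coding genes (30.1%) met one, but the coding bodies had a median of 24.7 kb. These differences have no replicate error and were not tested.

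Most parent genes met no domain of the list, of any width. The pseudogenes met carried 91 parent names, of which 43 matched a protein-coding gene by symbol. Of the 43, 6 (14.0%) met a domain. The share was 14.1% of 21519 protein-coding genes on the autosomes and X, and 8.43% (21 of 249) of the parent genes of all eligible pseudogenes, met or not. Cyp4b1, a fatty acid hydroxylase gene at 115624698 to 115647721 on chromosome 4, to the right of the Cyp4 run described above, had 3.00 kb covered (13.0%). Rpl15 had 0.300 kb (9.48%), Alms1, the gene of Alström syndrome, 7.20 kb (5.18%), Ap3s1 2.25 kb (4.58%), Nutf2 0.600 kb (3.02%) and Rbm6 0.300 kb (0.301%). None of 57 promoter windows of 38 of the parents met a domain, against 1.96% of 32619 windows of all genes. So few windows, some of them from the same gene, cannot show a difference from a share that small.

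The 10 pseudogenes with a symbol of their own include antiviral genes that are intact in some mouse strains and disrupted in the reference strain. Mx1, which encodes an antiviral GTPase, had 1.95 kb covered (12.3% of 15.9 kb), and Oas1b, a flavivirus resistance gene, had 1.26 kb covered (11.0% of 11.5 kb) by the edge of a 9.60 kb domain. Both were named after their values were seen. The others were Naip3, Zscan4a, Vmn2r127 (7.65%), Rnls (2.42%), Frg2f4 (78.8%), Spopfm1 (23.1%), Clec2j (25.8%) and Thap6 (7.42%).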

How the data were processed

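H4K20me3 ChIP-seq was made from 12 libraries, 3 at each of 4 times. The authors deposited 1 list of 3 columns (chromosome, start, end), called with RSEG per the file name. For its version, threshold and input libraries nothing is stated: not given in the sources used here. Bowtie2 2.3.4.1, SAMtools 1.1, deepTools, bedtools and the builds mm10, dm6, mm9 and GRCm38 are named, without roles, per the submitters' processing notes. Tested on the file, all but 1 of 28210 domains have both ends on a grid of 150 bases, which sets the precision of every overlap, and the smallest gap is 750 bases. Library depth is unknown here.

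Genes came from RefSeq for GRCm38.p6 (mm10): body ends and biotype, no strand or exons. Sequence analysed runs from 8 Mb to the last gene or domain end of each autosome. An overlap is at least 1 base. Parents were taken from symbols without the -ps or -rs ending, then from synonyms. No genome sequence was used. Named are the 10 widest members, the 10 with the largest share in a pseudogene (ties by width), up to 5 with the most pseudogenes, up to 4 pseudogenes per family, those at the limits, and parents met by a domain; other names were chosen after their values were seen. Members and lists were chosen with earlier results of these data known. Alternatives were other overlap, biotype, width, merging, start, gene and chromosome settings. Overlap functions were tested on simulated data. Overlaps were computed in Python 3.11.15 with pandas 2.3.3 and numpy 2.4.6, intervals with scipy 1.17.1, and plots with matplotlib 3.10.9.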

Additional observations from a re-analysis of the deposited data

How the results depend on the processing

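No paired analysis was possible because the list names no sample and no result comes from a test. The members numbered 576, but 271 with at least 50% of the pseudogene inside the domain, 346 for domains of at least 3.00 kb, 162 with named parents only, and, added after the data were seen, 367 and 265 for bodies under 10 and under 2 kb. The share of pseudogenes met, 7.82%, was 4.40%, 5.02%, 8.91%, 6.30% and 5.51% in the same order, and 6.72% with domains closer than 5 kb merged. The ratio of base shares, 1.32, stayed above 1 in all alternatives run, at 1.36 for biotype pseudogene alone, 1.36 for domains of at least 3.00 kb, 1.25 merged, 1.30 from 3 Mb, 1.33 with all other genes barred, 1.47 with named parents, and 1.36 without chromosome 7. Added later, it was 1.23 for bodies under 10 kb, 1.15 under 2 kb and 1.60 for domains of any width. The overlap alternative cannot change this ratio. The other 5 member counts were within 1.5 times 576, and the other 4 shares within the exact 95% binomial interval of 7.82% (7.17 to 8.51%), which treats pseudogenes as independent. The planned tests over time were not run, since no value per sample exists here.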

Other observations

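Some pseudogenes met only domains that are not members. Of the 6279 eligible pseudogenes, 679 (10.8%) met a domain of the list of any width, and 188 of these met none of the 576. In bodies of 5 to 10 kb, 12.2% of bases lay in domains of any width against 6.11% in those of 1 kb to under 10 kb, so that about as much of this sequence lay in wider or narrower domains as in the members' width range. In bodies under 1 kb the shares were 5.95% and 4.24%.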
